A study of Mus musculus with 36 samples.

Results

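The liver takes up drugs, hormones, bile pigments and organic ions from blood, and exports sterols, phospholipids and conjugates into bile, through membrane carriers of a few large gene families. The genes described here are 86 members of the ATP-binding cassette (Abc) subfamilies a to g, of the organic anion transporting polypeptide family (Slco) and of the organic ion carriers of the Slc22a family. Members were set by symbol: a gene entered if its single annotated symbol began with Abca to Abcg, Slco or Slc22a followed by a digit. The bile salt pump gene Abcb11 was left out, and 1 probe set stood for each gene. The set was chosen with earlier results of these data known. Of the 22180 genes measured, 47 were Abc, 15 Slco and 24 Slc22a genes. The symbol rule itself uses no expression value, and where a gene had several probe sets the one of highest mean signal was taken.

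RNA came from livers of C57BL/6 mice, and each hybridisation to a 1-colour Affymetrix array gave 1 value per probe set. TB mice bore lung adenocarcinoma in a conditional model that includes p53fl/fl, an allele from which p53 is removed only where Cre recombinase acts, and WT mice were the controls. The labels name no Cre line or virus, and no age or sex of either genotype. All mice lived in cycles of 12 h light and 12 h dark, and livers were taken every 4 h from Zeitgeber time (ZT) 0, lights on, to ZT 20. A genotype at a time made up a group of 3 arrays, so that 12 groups gave 36 arrays. The organ measured was the liver and not the tumour-bearing lung.

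Transport proteins of the ABC type use ATP hydrolysis to move their substrate, often against a gradient, and hepatocytes place several of them on the canalicular membrane that faces bile. Slco and Slc22a carriers use no ATP directly and bring organic anions, cations and carnitine into the cell from sinusoidal blood. Many of these genes are known targets of nuclear receptors, and some are known to follow the daily cycle of feeding and of the circadian clock in mouse liver. Soluble members of the e and f subfamilies have the ATPase domain but no membrane part and work at the ribosome.

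Array medians lay between 36.3 and 43.3 intensity units, and arrays of the same group correlated at 0.928 to 0.989 on the log2 scale. The summed intensity of 9 hepatocyte genes was 71197 to 75574 in TB and 66528 to 76458 in WT arrays. A leading component of probe sets with no gene symbol divided the arrays into a smaller set of 12, 1 in each group, and a larger set of 24, and values within each set are given below. At each time the TB and WT arrays of the smaller set bore the same replicate number. The component held 28.6% of the within-group variance of those probe sets. Acute phase genes, the hepatic response to inflammation, were higher in TB in 12 of 12, with a median difference of 1.02 (log2), and 3 of them rose past the threshold. One array stood apart in many transporters: TB ZT 0 replicate 1 held 17 of the highest or lowest values of the 86 genes, 9.88% of such extremes, against 3.67% of the extremes of all genes. WT ZT 12 replicate 3 held 11.6% of these extremes in the 86 genes, against 6.86% over all genes, and 8 skeletal muscle genes summed to 264669 units there, against at most 548 in any TB array. Beside the main counts and some of the genes extreme in TB ZT 0 replicate 1, values without that array are given.

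Of the 86 genes, 60 never fell under 16 intensity units, and 11 were under 16 in over 18 arrays. All tests were run on log2(intensity + 16) with limma across all 22180 genes, and adjusted p is the Benjamini-Hochberg value over all of them, with 0.05 as the threshold. The added 16 shrinks differences of dim genes. In RNA from whole liver, fewer cells of a type and less RNA per cell cannot be told apart.

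The first question was which transporters followed the daily cycle in each genotype. A cosine with a 24 h period was fitted for each genotype, with 18 arrays each, in a model of all arrays together. The residual variance was shared by both genotypes, so SE and p in either genotype also depend on scatter in the other. In TB livers 8 of the 86 genes (9.3%) had a rhythm past the threshold, against 4.95% of all genes. In WT livers it was 10 genes (11.6%), against 6.45% of all genes. The genes called in both genotypes numbered 4 (4.65%, against 2.68% of all genes): Abcg5, Abcg8, Abcc2 and Abca8b. Called in TB alone were Abce1, Slc22a5, Slc22a30 and Slc22a15, and called in WT alone were Abca6, Abca2, Abcf1, Abcd2, Slco1a4 and Abcc6. The remaining 72 genes passed in neither. Sterol and phospholipid exporters gave 3 calls in TB and 5 in WT out of 22 genes, and the 23 carriers studied mainly in kidney, brain and other organs gave 0 in either.

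These counts depended on the arrays used. In the larger set alone, 3 genes were called in TB (Abce1, Slc22a5 and Slc22a30), which is 3.49% against 4.25% of all genes. In WT 8 were called there (9.3%, against 6.57%), of which 6 were among the 10 above. In the smaller set, with 1 array per group, 0 were called in either genotype. Without TB ZT 0 replicate 1, 12 genes (14%) were called in TB, against 6.77% of all genes, and 12 in WT, against 6.96%. The added genes in TB were Abca6, Abcb10, Abcg2 and Slc22a28, and those in WT were Abcb1a and Slc22a30. Without WT ZT 12 replicate 2, 6 (6.98%) were called in WT, against 5.15% of all genes. Leaving out WT ZT 12 replicate 3 left the same 8 and 10 genes. Which genes passed in 1 genotype alone also moved with the model. With the array set as a block, Abce1 and Slc22a5 were called in WT too (adjusted p 0.0272 and 0.0404) and Abca6 in TB (0.0478). Quantile scaling called Abce1 in WT (0.0261) and Abca6 in TB (0.0202).

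**Figure D1:**
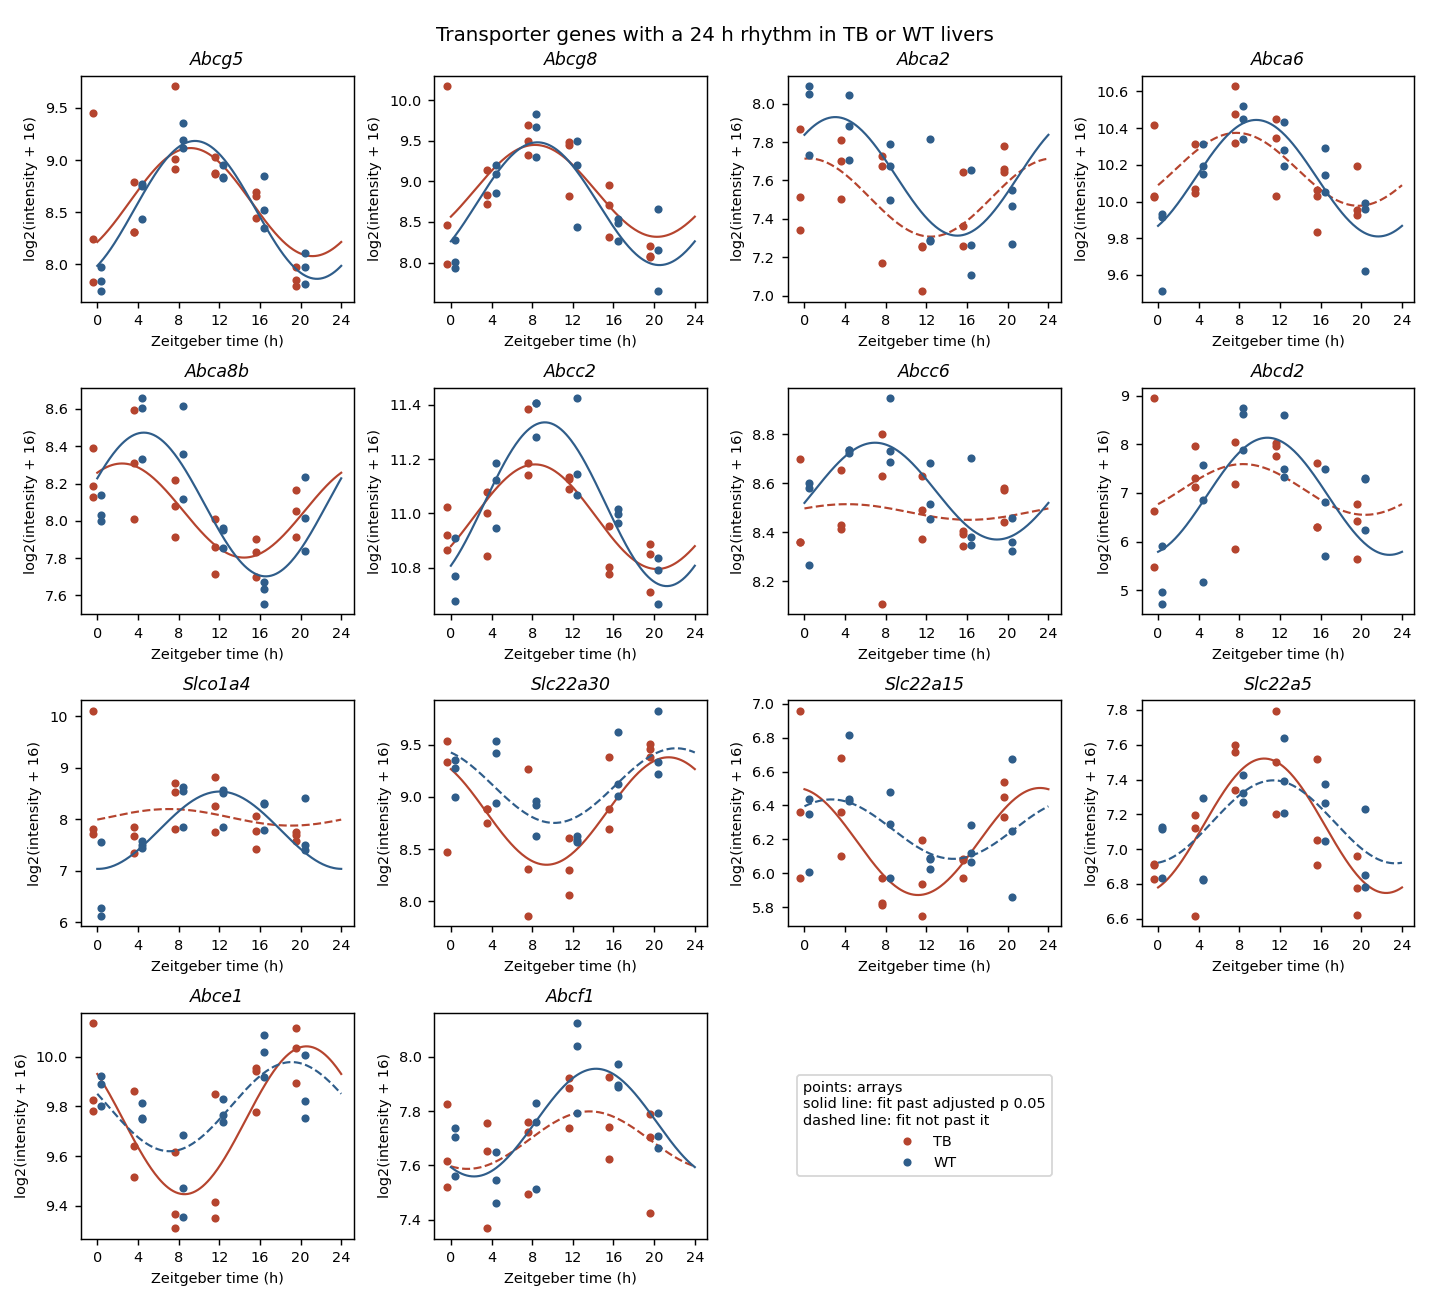
Levels of the 14 genes called in TB or WT, as log2(intensity + 16) on the vertical axis against Zeitgeber time in h on the horizontal axis. Points are single arrays and lines the fitted 24 h cosines, TB in red and WT in blue, solid where the adjusted p was under 0.05. Abcg5 and Abcg8 run together, with fitted peaks between ZT 8.28 and 9.62.

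Abcg5 and Abcg8 encode the partners of the heterodimer that pumps cholesterol and plant sterols into bile, and both genes cycled in both genotypes. In TB livers Abcg5 measured 683, 287 and 211 units at ZT 0, 425, 302 and 302 at ZT 4, 465, 821 and 501 at ZT 8, 453, 449 and 506 at ZT 12, 398, 332 and 388 at ZT 16, then 206, 215 and 236 at ZT 20. In WT livers it measured 198, 212 and 236 at ZT 0, 414, 330.3 and 421 at ZT 4, 571, 537 and 638 at ZT 8, 440.3, 481 and 438 at ZT 12, 444, 310.3 and 351 at ZT 16, then 208, 236 and 259 at ZT 20. Every array at ZT 8 was above every array at ZT 20 in both genotypes, and 1 of the 3 TB arrays at ZT 0 was high. The fitted amplitude, the distance from the mean to the peak, was 0.52 ± 0.10 (log2, SE) in TB and 0.66 ± 0.10 in WT. Peaks fell at ZT 9.17 in TB and ZT 9.62 in WT, with adjusted p of 0.0041 in TB and 0.00015 in WT. From trough to peak the fit spanned 2.05-fold in TB and 2.5-fold in WT.

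Abcg8 ran a similar course. It measured 1139.7, 336 and 236 units at ZT 0, 625, 706 and 810.1 at ZT 8, then 278, 253 and 255 at ZT 20 in TB. In WT it measured 227, 293 and 241 at ZT 0, 800.1, 613 and 891 at ZT 8, then 269.9, 184 and 387 at ZT 20. The lone high value at TB ZT 0 belonged to replicate 1, as it did for Abcg5. Amplitudes were 0.57 ± 0.14 in TB and 0.76 ± 0.14 in WT (adjusted p 0.0239 in TB and 0.000911 in WT). Without that array the TB amplitude was 0.65 for Abcg5 and 0.71 for Abcg8, with adjusted p of 9.3e-07 and 1.74e-05. The TB call of Abcg8 was lost without any 1 of 4 other arrays: ZT 8 replicate 3 (adjusted p 0.0718) and ZT 20 replicates 1, 2 and 3 (0.0605, 0.0662 and 0.0688). In the larger set Abcg5 and Abcg8 had TB amplitudes of 0.33 and 0.50 (adjusted p 0.272 and 0.168), and in the smaller set 0.89 and 0.71 (0.0609 and 0.177). In WT they were 0.71 and 0.79 in the larger set, both called, and 0.57 and 0.69 in the smaller set, neither called.

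The pair lies head to head, so its promoters are shown because they overlap. RefSeq windows on GRCm38.p6, from 250 bases before to 50 after each gene's start, have starts 110 bases apart on opposite strands of chromosome 17. Capitals mark the 209 bases that both windows hold, at positions -159 to 50 in each, where negative positions lie before the start. Each window is written 5′ to 3′ on its own gene's strand, so the capitals of one are the reverse complement of the other's. The Abcg5 window is chr17:84682962-84683261 on the minus strand and the Abcg8 window is chr17:84682871-84683170 on the plus strand.
Abcg5: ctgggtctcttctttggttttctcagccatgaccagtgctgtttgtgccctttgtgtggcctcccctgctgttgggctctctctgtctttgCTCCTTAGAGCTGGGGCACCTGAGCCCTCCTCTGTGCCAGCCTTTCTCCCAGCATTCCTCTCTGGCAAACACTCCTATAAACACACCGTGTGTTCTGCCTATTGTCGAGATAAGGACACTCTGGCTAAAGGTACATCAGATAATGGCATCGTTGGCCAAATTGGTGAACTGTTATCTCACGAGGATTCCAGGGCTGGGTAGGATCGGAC
Abcg8: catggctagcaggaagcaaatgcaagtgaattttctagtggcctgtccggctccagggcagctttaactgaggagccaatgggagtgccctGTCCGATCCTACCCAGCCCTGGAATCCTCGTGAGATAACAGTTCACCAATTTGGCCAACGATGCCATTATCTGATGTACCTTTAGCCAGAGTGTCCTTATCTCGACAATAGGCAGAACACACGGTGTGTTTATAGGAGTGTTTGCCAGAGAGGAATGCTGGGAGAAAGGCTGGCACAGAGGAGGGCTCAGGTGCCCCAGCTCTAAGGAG

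Among the 12 drug and conjugate efflux pumps, Abcc2 passed the rhythm test in both genotypes. It encodes Mrp2, the canalicular pump for bilirubin glucuronides and glutathione conjugates. Abcc2 measured 1849.6, 2067 and 1922 units at ZT 0, 2149, 2036 and 1821 at ZT 4, 2312, 2660.1 and 2243 at ZT 8, 2231, 2164 and 2221 at ZT 12, 1737, 1969.5 and 1768 at ZT 16, then 1659, 1832 and 1876 at ZT 20 in TB livers. In WT livers it measured 1621, 1729 and 1908 at ZT 0, 1957, 2214 and 2311 at ZT 4, 2698, 2471 and 2697 at ZT 8, 2247, 2732 and 2129 at ZT 12, 2031, 2056 and 1980.3 at ZT 16, then 1813, 1755 and 1610.04 at ZT 20. ZT 8 was the highest group and ZT 20 the lowest in both genotypes, with no overlap between those groups. The amplitude was 0.19 ± 0.04 in TB, peaking at ZT 8.28, and 0.30 ± 0.04 in WT, peaking at ZT 9.25. Adjusted p was 0.00597 in TB and 1.14e-05 in WT, the smallest of any of the 86 genes in WT. Both calls held in each of the 36 fits that left out 1 array. Within the larger set the TB amplitude was 0.16 (adjusted p 0.101) and the WT amplitude 0.36 (0.000101). Within the smaller set they were 0.26 (0.48) and 0.19 (0.516).

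Abcc6, a hepatocyte transporter whose loss in people causes pseudoxanthoma elasticum, passed in WT with a smaller span. It measured 260.1, 431 and 379.9 units at ZT 8, then 368, 365 and 332 at ZT 20 in TB, against 409, 396 and 478 at ZT 8, then 304, 312 and 335 at ZT 20 in WT. The TB values at those times, the highest and lowest groups of WT, overlap and the WT values do not. The highest and lowest groups of TB, ZT 20 and ZT 16, did not overlap in TB either. They measured 8.58, 8.57 and 8.44 (log2) at ZT 20, against 8.34, 8.39 and 8.41 at ZT 16. Amplitudes were 0.032 ± 0.052 in TB (adjusted p 0.954) and 0.20 ± 0.052 in WT (0.0416). The WT call was lost without any 1 of 11 WT arrays, with adjusted p of 0.0536 to 0.141. They were ZT 4 replicates 1, 2 and 3, ZT 8 replicates 1 and 3, ZT 12 replicate 2, ZT 16 replicates 1 and 3, and ZT 20 replicates 1, 2 and 3.

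Apart from Abcc2 and Abcc6, the efflux pumps passed neither rhythm test on all arrays. Abcg2, which exports drugs, urate and porphyrins into bile, had an amplitude of 0.34 ± 0.13 in TB (adjusted p 0.321) and 0.14 ± 0.13 in WT (0.875). Its TB values at ZT 0 were 206, 543 and 799 units, the first of them from the array that stood apart. Without that array the TB amplitude was 0.47, peaking at ZT 22.2, with an adjusted p of 0.0307. Abcb1a, a P-glycoprotein gene, had 0.15 ± 0.10 in TB and 0.33 ± 0.10 in WT (adjusted p 0.719 in TB and 0.114 in WT). Its WT call appeared without TB ZT 0 replicate 1, where adjusted p was 0.043. Abcc3, the sinusoidal pump for glucuronides, had 0.23 ± 0.12 in TB and 0.18 ± 0.12 in WT (adjusted p 0.581 and 0.765).

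Of the a subfamily, whose proteins move lipids, Abca8b cycled in both genotypes with a peak in the first part of the light phase. It measured 276, 264 and 319.8 units at ZT 0, 370.5, 302 and 242 at ZT 4, 226, 282 and 254 at ZT 8, 242, 194 and 216 at ZT 12, 223, 192 and 212 at ZT 16, then 250.04, 271 and 225 at ZT 20 in TB. In WT it measured 239.9, 246 and 265 at ZT 0, 307, 388 and 373 at ZT 4, 376, 262 and 312 at ZT 8, 233, 232 and 216 at ZT 12, 172, 183 and 188 at ZT 16, then 243, 213 and 285 at ZT 20. ZT 4 was the highest and ZT 16 the lowest group in both, and at ZT 16 all 3 TB arrays were above all 3 WT arrays. The amplitude was 0.25 ± 0.057 in TB and 0.39 ± 0.057 in WT (adjusted p 0.0148 in TB and 7.04e-05 in WT). Fitted peaks fell at ZT 2.44 in TB and ZT 4.58 in WT. The TB call was lost without TB ZT 4 replicate 1 (adjusted p 0.0536). The larger set alone gave 0.20 in TB (adjusted p 0.177) and 0.40 in WT (0.00138). The smaller set gave 0.36 in TB (0.182) and 0.35 in WT (0.163).

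Abca6 lies in the same run of genes as Abca8b in the RefSeq table of GRCm38.p6, with Abca8a, Abca9 and Abca5, on chromosome 11, and it peaked later. It measured 1409.9, 1567 and 1263 units at ZT 8, then 958, 1154 and 975 at ZT 20 in TB, against 1450.05, 1281 and 1381 at ZT 8, then 979, 1003 and 773 at ZT 20 in WT. The ZT 8 arrays were above the ZT 20 arrays in both genotypes. The amplitude was 0.20 ± 0.056 in TB, peaking at ZT 7.72, and 0.32 ± 0.056 in WT, peaking at ZT 9.66 (adjusted p 0.0773 in TB and 0.000838 in WT). The TB fit passed the threshold without 1 of 3 arrays: ZT 0 replicate 1 (0.0239), ZT 4 replicate 3 (0.0471) or ZT 20 replicate 2 (0.0498). Abca8a, the neighbour of Abca8b, had amplitudes of 0.065 ± 0.15 in TB and 0.19 ± 0.15 in WT and was not called.

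Abca2, a protein of endosomes and lysosomes with a role in sterol trafficking, had its fitted peak early in the light phase. It measured 146, 167 and 218 units at ZT 0, then 114, 137 and 136 at ZT 12 in TB, against 257, 249 and 197 at ZT 0, then 209, 141 and 140.01 at ZT 12 in WT. At ZT 12 all TB arrays were below all WT arrays, whereas at ZT 20 all TB arrays were above, at 204, 184 and 186 units in TB, against 172, 138 and 161 in WT. Amplitudes were 0.20 ± 0.069 in TB (adjusted p 0.185) and 0.31 ± 0.069 in WT (0.0108), with peaks at ZT 0.428 in TB and ZT 3.03 in WT. Abca1, which loads cholesterol onto apolipoprotein A-I, passed in neither genotype. Its values ran from 671 to 1002 units in TB and from 651 to 866 in WT, and amplitudes were 0.09 ± 0.044 and 0.07 ± 0.044. Abcb4, the canalicular phosphatidylcholine translocase, had 0.18 ± 0.067 in TB and 0.20 ± 0.067 in WT (adjusted p 0.248 and 0.167), and was called in WT in the larger set alone.

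Peroxisomes take up very long chain and branched acyl-CoA through Abcd proteins. Abcd2 had the widest daily span of the 86 genes in WT and was variable between replicates. In TB it measured 477, 83.5 and 28.8 units at ZT 0, 247, 41.8 and 129.7 at ZT 8, 244, 202 and 233 at ZT 12, then 69.7, 33.7 and 93.4 at ZT 20. In WT it measured 10.4, 15.1 and 44 at ZT 0, 222, 379 and 415 at ZT 8, 145, 375 and 165 at ZT 12, then 59.3, 144 and 141 at ZT 20. WT arrays at ZT 8 lay above all WT arrays at ZT 0, whereas the TB arrays of those times overlap. Those times were the highest and lowest groups of WT. The highest and lowest groups of TB, ZT 12 and ZT 20, did not overlap in TB either. The amplitude was 0.52 ± 0.29 in TB (adjusted p 0.589) and 1.21 ± 0.29 in WT (0.0205), with peaks at ZT 8.36 in TB and ZT 10.8 in WT. The first TB value at ZT 0 came from the array that stood apart, and without it the TB amplitude was 0.73 (adjusted p 0.227). The WT call was lost without ZT 0 replicate 1 (0.0697), ZT 0 replicate 2 (0.0638), ZT 8 replicate 3 (0.0533) or ZT 12 replicate 2 (0.0589). Abcd3, the peroxisomal transporter for bile acid precursors and branched acyl-CoA, had amplitudes of 0.12 ± 0.083 in TB and 0.10 ± 0.083 in WT and was not called.

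Slc22a5 encodes Octn2, which brings carnitine into the cell for mitochondrial fatty acid oxidation, and it cycled in TB livers with a peak near the end of the light phase. It measured 97.7, 104 and 104 units at ZT 0, 172, 178 and 146 at ZT 8, 131, 165 and 206 at ZT 12, then 82.4, 93.6 and 108 at ZT 20 in TB. In WT it measured 124, 98.1 and 123 at ZT 0, 144, 156 and 139 at ZT 8, 132, 183 and 152 at ZT 12, then 99.4, 134 and 94 at ZT 20. The ZT 12 arrays were above the ZT 20 arrays in TB, and these groups overlap in WT. The amplitude was 0.39 ± 0.068 in TB (adjusted p 0.000994) and 0.24 ± 0.068 in WT (0.0696), peaking at ZT 10.4 in TB and ZT 11.3 in WT. The TB call held in each of the 36 fits that left out 1 array and in the larger set (0.0381). In the smaller set the TB amplitude was 0.50 (adjusted p 0.144). In WT the threshold was passed without TB ZT 4 replicate 3 (0.0400). The other 3 carnitine carriers were not called.

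Slc22a30 and Slc22a15 peaked late in the dark phase in TB livers. Slc22a30, a rodent gene in a run of 8 Slc22a genes on chromosome 19, measured 251, 299 and 374 units at ZT 12, then 651, 685 and 709.98 at ZT 20 in TB, against 364, 379 and 367 at ZT 12, then 578, 630.03 and 891 at ZT 20 in WT. The ZT 20 arrays were above the ZT 12 arrays in both genotypes. The amplitude was 0.51 ± 0.11 in TB, peaking at ZT 21.4, and 0.36 ± 0.11 in WT, peaking at ZT 22.2 (adjusted p 0.00633 in TB and 0.0924 in WT). In the larger set the TB amplitude was 0.64 (0.00923), and in the smaller set 0.37 (0.589). Without TB ZT 0 replicate 1 the WT adjusted p was 0.0462. Slc22a15 measured 40.1, 40.5 and 46.7 units at ZT 8, then 76.9, 71.6 and 64.5 at ZT 20 in TB, against 46.9, 62.3 and 73.2 at ZT 8, then 60.2, 86.2 and 42.1 at ZT 20 in WT. These groups, the highest and lowest of TB, overlap in WT and not in TB. The highest and lowest of WT, ZT 4 and ZT 12, did not overlap in WT either. They measured 6.82, 6.43 and 6.44 (log2) at ZT 4, against 6.03, 6.09 and 6.08 at ZT 12. The amplitude of Slc22a15 was 0.32 ± 0.078 in TB (0.0294) and 0.18 ± 0.078 in WT (0.409). The TB call of Slc22a15 was lost without TB ZT 0 replicate 3 (adjusted p 0.134), ZT 8 replicate 1 (0.0607), ZT 12 replicate 1 (0.0874), ZT 12 replicate 2 (0.0513) or ZT 20 replicate 1 (0.0590).

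Slco1a4 encodes Oatp1a4, a sinusoidal carrier of organic anions, bile acids and cardiac glycosides. In TB it measured 1086, 194 and 207 units at ZT 0, 214, 189 and 145 at ZT 4, 355, 398 and 207 at ZT 8, 438, 199 and 289 at ZT 12, 202, 155 and 251 at ZT 16, then 199.6, 192 and 176 at ZT 20. In WT it measured 53.5, 61.7 and 172 at ZT 0, 165, 158 and 175 at ZT 4, 214, 381 and 360.1 at ZT 8, 363, 346 and 214 at ZT 12, 303, 204 and 298 at ZT 16, then 154, 164 and 324 at ZT 20. The 3 TB arrays at ZT 0 were all above the 3 WT arrays, by far the most in replicate 1, and the genotypes overlap at every other time. The amplitude was 0.16 ± 0.19 in TB (adjusted p 0.905) and 0.75 ± 0.19 in WT (0.028). Without TB ZT 0 replicate 1 the TB amplitude was 0.36 (adjusted p 0.286), peaking at ZT 10.3, against ZT 7.07 with it. The WT call was lost without WT ZT 0 replicate 1 (0.114), ZT 0 replicate 2 (0.104) or ZT 12 replicate 2 (0.0549). Within the larger set the WT amplitude was 0.92 (adjusted p 0.0717) and within the smaller set 0.43 (0.492).

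Other sinusoidal uptake carriers showed no rhythm past the threshold. Slco1b2, the main mouse liver carrier of the 1b group for bilirubin and statins, had amplitudes of 0.093 ± 0.067 in TB and 0.10 ± 0.067 in WT. Slco2b1, a carrier of steroid sulfates, had 0.075 ± 0.041 in TB and 0.085 ± 0.041 in WT. Slc22a7, the organic anion carrier Oat2, had 0.14 ± 0.19 in TB and 0.34 ± 0.19 in WT. Slco1a1, which carries steroid conjugates and bile acids, had 0.35 ± 0.32 in TB and 0.17 ± 0.32 in WT. The arrays of Slc22a7 and Slco1a1 scattered more than those of Slco1b2 and Slco2b1, as their SEs, shared by both genotypes, show. TB ZT 0 replicate 1 held the lowest value of Slc22a7 and of Slco1a1, at 6.19 and 5.52 (log2). The SD of Slco1a1 was 3.13 (log2) in TB ZT 0, 1.37 in TB ZT 8 and at most 0.67 in any other group.

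The soluble ATPases are not transporters, although they share the Abc name. Abce1, which splits ribosomes after termination, had the smallest adjusted p of the 86 genes in TB. It measured 643, 769.5 and 618 units at ZT 8, then 935, 1035 and 1095 at ZT 20 in TB, against 807, 694 and 638 at ZT 8, then 889, 1015 and 848 at ZT 20 in WT. The ZT 20 arrays were above the ZT 8 arrays in both genotypes. Its amplitude was 0.30 ± 0.051 in TB, peaking at ZT 20.6, and 0.18 ± 0.051 in WT, peaking at ZT 19.1 (adjusted p 0.000596 in TB and 0.0631 in WT). The larger set gave 0.34 in TB (0.00129), and the smaller set 0.21 (0.602). The WT fit passed without WT ZT 20 replicate 3 (0.0333) or TB ZT 12 replicate 3 (0.0452). Abcf1, an eIF2-binding factor of translation initiation, measured 200.4, 149 and 185 units at ZT 4, then 220.3, 197 and 226 at ZT 12 in TB, against 171, 160.01 and 185 at ZT 4, then 247, 263 and 206 at ZT 12 in WT. These times overlap in TB and not in WT. Its amplitude was 0.11 ± 0.047 in TB (0.413) and 0.20 ± 0.047 in WT (0.0187), and the WT call was lost without WT ZT 4 replicate 2 (0.0544) or ZT 12 replicate 2 (0.0586).

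The second question was whether the daily pattern differed between TB and WT livers, and it was tested on the difference of the fitted cosines. By this limma test 0 of the 86 genes passed, as did 0% of all genes, and 5 genes (5.81%) had an unadjusted p under 0.05, against 4.8% of all genes. So the calls made in 1 genotype alone are not shown to be differences between genotypes. Of the 14 rhythmic genes, 10 had a smaller fitted amplitude in TB than in WT and 4 a larger one. The 4 larger ones were the genes called in TB alone, and the count makes no allowance for that sorting. Over all 1936 genes called in either genotype (8.73%), 60.7% had the smaller amplitude in TB. Of the same 14 genes, 13 had the earlier fitted peak in TB and Abce1 the later one, while 66.1% of the 1936 genes called in either genotype had the earlier peak in TB. Leaving out TB ZT 0 replicate 1 gave 11 of the 14, against 63.4%, with Abcg5 and Abcg8 then peaking later in TB, at ZT 9.83 and 9.24. Some of these peaks belong to fits with next to no rhythm, such as Abcc6 and Slco1a4 in TB.

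The 6 genes with the smallest p in this test were Slc22a29, Slc22a27, Slco1a4, Abca8b, Slc22a6 and Abcc6. Slc22a29 was under 16 units on all 36 arrays and Slc22a27 on 29, so their differences (unadjusted p 0.0203 and 0.022) concern dim signals. When TB ZT 0 replicate 1 was left out, there were again 5 genes with an unadjusted p under 0.05 (against 5.9% of all genes), with Abcd3 (0.0087) and Slc22a15 (0.0215) in place of Slc22a29 and Slco1a4. Slco1a4 had an unadjusted p of 0.0339, and 0.0881 without TB ZT 0 replicate 1. Abca8b had 0.0361, and 0.0366 without that array. In both genotypes Abca8b was called, and its fitted peak lay 2.14 h earlier in TB. Slc22a6, the renal organic anion exchanger Oat1, had 0.0477 and Abcc6 had 0.0743. The smallest adjusted p among the 86 genes was 0.985.

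**Figure D2:**
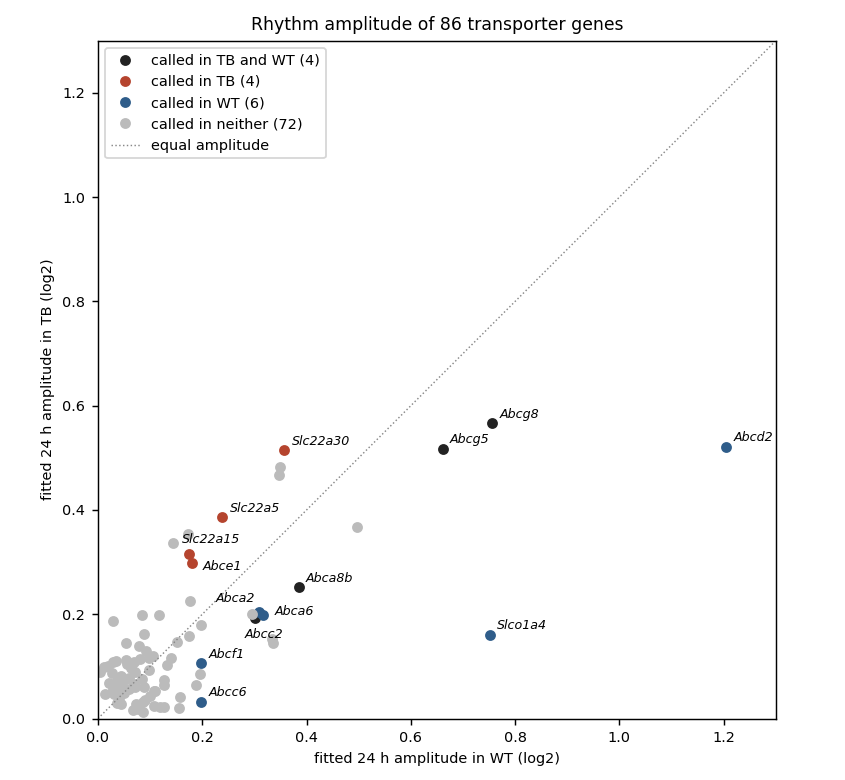
Fitted 24 h amplitude of each of the 86 genes, in TB on the vertical and in WT on the horizontal axis, both in log2 units, with the line of equal amplitude dotted. Colours show in which genotype the rhythm was called, and Abcd2 and Slco1a4 lie farthest below the line, with 0.52 in TB and 1.21 in WT, and 0.16 in TB and 0.75 in WT.

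A further question was whether transporter levels differed between TB and WT livers when the 6 times were averaged. By limma, 0 of the 86 genes passed, against 0.176% of all genes (39 of 22180). Of the 86, 12 had an unadjusted p under 0.05 (14%), against 11% of all genes. Of these, 5 were higher in TB (5.81%, against 5.69% of all genes) and 7 lower (8.14%, against 5.35%). With TB ZT 0 replicate 1 left out, 8 of the 86 had an unadjusted p under 0.05 (9.3%, against 9.87% of all genes). The median difference over the 86 genes was 0.0043 (log2), against 0.0073 over all genes, with 46 positive and 40 negative. The positive share was 53.5%, against 53.8% of all genes. Differences were small: 63 of the 86 were within 0.1 of 0 on the log2 scale, and 1, Slc22a26, was beyond 0.5.

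Several liver transporters could be bounded closely. Abcc2 differed by -0.046 ± 0.041 (TB minus WT, log2, SE), with a 95% interval of -0.13 to 0.037. Slco2b1 differed by 0.0057 ± 0.044 (interval -0.085 to 0.10), Abca1 by -0.0028 ± 0.043 (-0.09 to 0.085) and Slco1b2 by -0.065 ± 0.065 (-0.20 to 0.068). For Abcg5 it was 0.075 ± 0.10 (-0.12 to 0.27) and for Abcg8 0.16 ± 0.14 (-0.12 to 0.44). Slc22a7 and Slco1a1 were measured less precisely, at -0.0026 ± 0.17 (-0.35 to 0.35) and -0.46 ± 0.31 (-1.09 to 0.18). Abcb1a differed by 0.13 ± 0.11, Abcb4 by -0.024 ± 0.071, Abcc3 by -0.0065 ± 0.12, Abcg2 by -0.24 ± 0.14 and Slc22a5 by -0.023 ± 0.071.

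The smallest p belonged to Abcb6, a porphyrin carrier of mitochondria and other membranes. At ZT 4 it measured 243, 259.5 and 238 units in TB, against 295, 304 and 284 in WT, with no overlap. Over 6 times it differed by -0.17 ± 0.05, with TB lower at 5 of 6 times and an adjusted p of 0.184. Fits that left out 1 array gave Abcb6 differences of -0.18 to -0.14. Abcd3 measured 2596, 2475 and 1919 units at ZT 4, 1653, 2309 and 1863 at ZT 8, then 2335, 2325 and 2063 at ZT 16 in TB, against 2625, 2825 and 2685 at ZT 4, 2772, 2529 and 3032 at ZT 8, then 3135, 2659.8 and 2628 at ZT 16 in WT. At these 3 times every TB array was below every WT array, which no other of the 86 genes showed at 3 times. How many of all genes did so was not counted. Over 6 times Abcd3 differed by -0.27 ± 0.084 (adjusted p 0.193), with -0.33 when the larger set was used alone (0.0649) and -0.13 with the smaller one (0.673). Fits that left out 1 array gave Abcd3 differences of -0.30 to -0.21. TB ZT 0 replicate 1, which is in the larger set, held the lowest value of both Abcb6 and Abcd3.

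Abcc9, the sulfonylurea receptor SUR2 that regulates ATP-sensitive potassium channels, was on the other side. It measured 781, 384 and 394 units at ZT 0, then 388, 371 and 342 at ZT 20 in TB, against 287, 316 and 264 at ZT 0, then 297, 276 and 319 at ZT 20 in WT, with all TB arrays above at both times. Over 6 times it differed by 0.27 ± 0.083 (adjusted p 0.187), and by 0.22 to 0.31 in fits that left out 1 array. In the larger set it passed, at 0.32 ± 0.088 (0.0435), and Slc22a30, the other gene that passed there, was at -0.40 ± 0.11 (0.0397). The larger set includes TB ZT 0 replicate 1, which held the highest Abcc9 value of all arrays. In the smaller set the differences were 0.16 for Abcc9 and 0.06 for Slc22a30. Over all arrays Slc22a30 differed by -0.24 ± 0.11 (adjusted p 0.379) and was lower in TB at each of the 6 times. In the larger set 1152 genes were called in all.

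By role, all 4 soluble ATPases and all 3 mitochondrial members had negative differences, between -0.17 and -0.055, and none passed. All 7 stayed negative under quantile and median scaling and in the larger set, whereas in the smaller set 2 of the 4 and 2 of the 3 were positive. Abcf3 was at -0.14 ± 0.045 (adjusted p 0.221) and Abcf2 at -0.11 ± 0.045 (0.342). The 22 sterol and phospholipid exporters had 12 positive differences and a median of 0.028, with Abca7, a phospholipid exporter also studied in phagocytes, at 0.15 ± 0.054 (0.252) and Abca17 at 0.13 ± 0.047 (0.3). The 12 efflux pumps had 5 positive and a median of -0.017. Of the 11 hepatocyte uptake carriers 5 were positive, with a median of -0.0026. The 23 carriers studied mainly in other organs had 16 positive and a median of 0.053, and 16 of them were in the dimmest of 3 equal bins of all genes by mean signal. Beside these counts by role, 53.8% of the differences of all genes were positive.

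**Figure D3:**
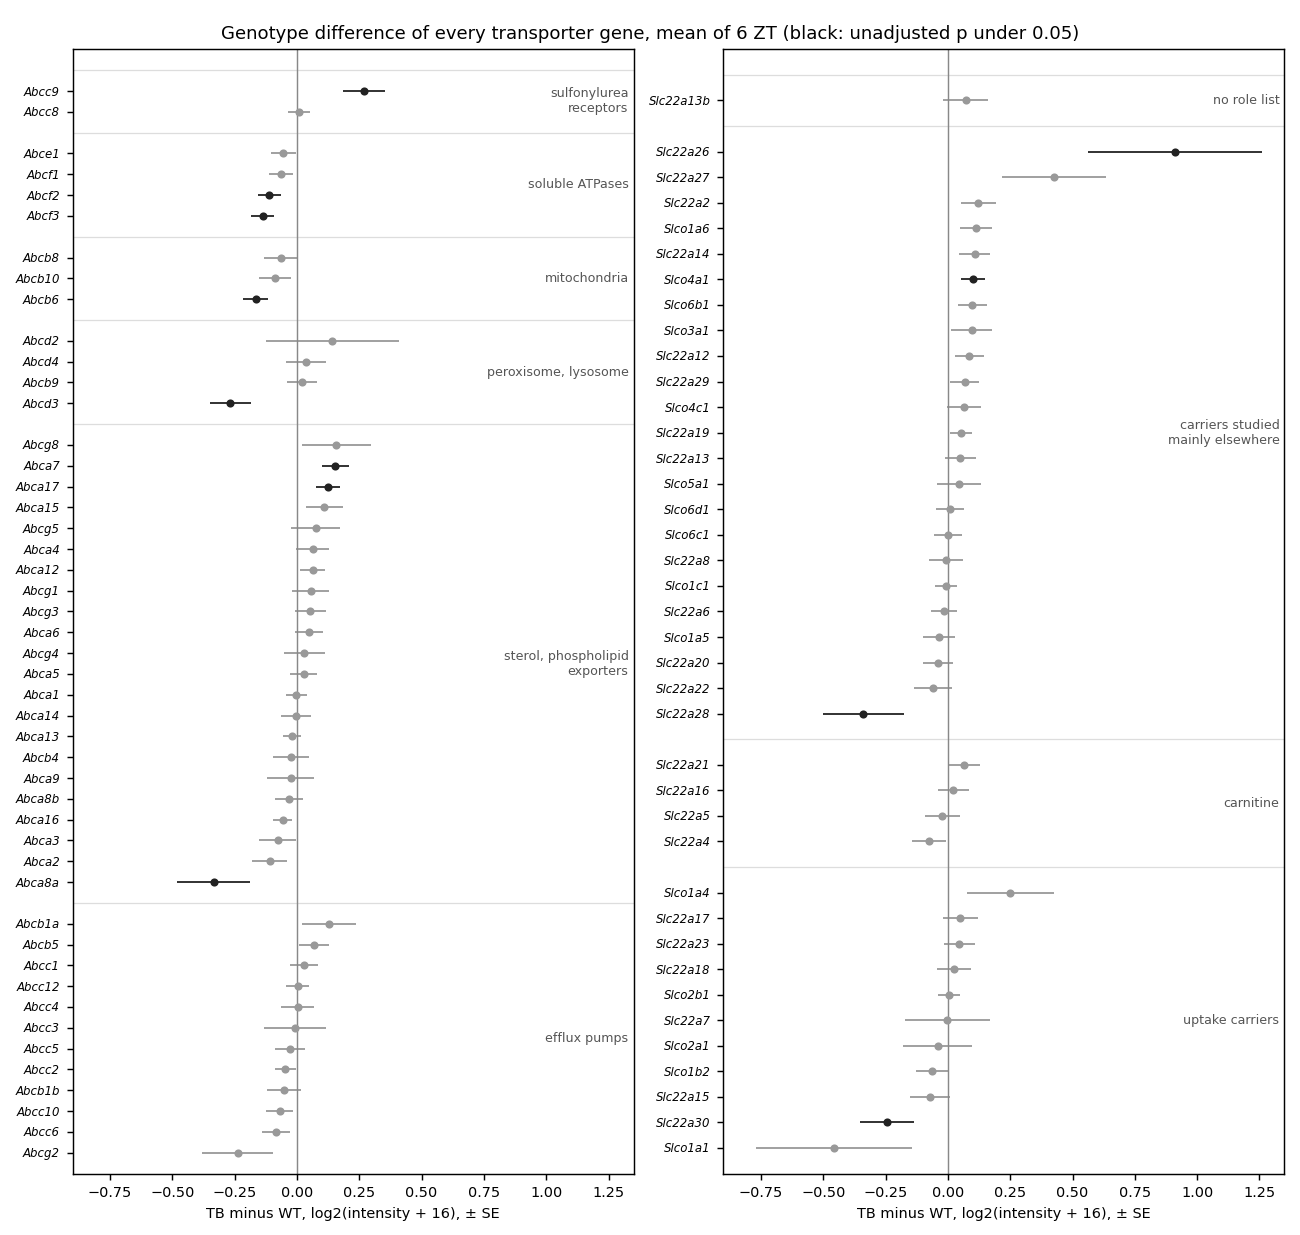
TB minus WT difference of each of the 86 genes on the log2(intensity + 16) scale, averaged over 6 times, with bars of 1 SE, grouped by role and drawn black where the unadjusted p was under 0.05. Most genes lie within 0.1 of 0, Slc22a26 at 0.91 and Slco1a1 at -0.46 have the widest bars, and 0 genes passed the adjusted threshold.

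At single times 0 of the 86 genes passed at any ZT. The share of all genes called was 0.00451% (1 gene) at ZT 8 and 0% at the other 5 times. At ZT 0, 13 of the 86 (15.1%) had an unadjusted p under 0.05, against 4.74% of all genes. Leaving out TB ZT 0 replicate 1 gave 3 of the 86 (3.49%), namely Abcc9, Slco1a4 and Slc22a14 (named after its values were seen), against 3.74% of all genes, so that the higher count rests on that array. At the other times it was 5 genes at ZT 4 (against 3.26% of all genes), 4 at ZT 8 (5.3%), 4 at ZT 12 (7.41%), 1 at ZT 16 (5.38%) and 1 at ZT 20 (1.81%). The test of a genotype difference that depends on ZT called 0 genes, and 3 of the 86 (3.49%) had an unadjusted p under 0.05, against 2.48% of all genes. They were Slco1a4 (0.0102), Abcd2 (0.0249) and Slc22a6 (0.0439). After TB ZT 0 replicate 1 was left out, it was 1 gene (1.16%, against 2.66% of all genes), with unadjusted p of 0.0832 for Slco1a4, 0.0544 for Abcd2 and 0.0492 for Slc22a6. Without WT ZT 12 replicate 3 it was 2 (2.33%, against 3.2%).

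The largest single-time contrast by p was Slco1a4 at ZT 0, at 1.89 ± 0.43 (unadjusted p 0.00012, adjusted 0.448). Without TB ZT 0 replicate 1 it was 1.11 ± 0.36 (unadjusted p 0.00415). Slc22a7 at ZT 0 measured 56.9, 330.1 and 238 units in TB, against 328, 684 and 289.99 in WT, a difference of -1.17 ± 0.42, and -0.50 without that array. Abcc9 at ZT 0 differed by 0.74 ± 0.20 (adjusted p 0.793), and by 0.41 without it. Abcd2 at ZT 0 differed by 1.83 ± 0.65, and by 0.86 without it. Among dimmer or less liver-typical carriers, Slc22a2 and Slc22a13b had an unadjusted p of 0.0468 and 0.0483 at ZT 4, Slco1c1 of 0.0402 at ZT 12 and Slco6b1 of 0.0687 at ZT 16. At ZT 8 the smallest p was that of Abcd3, at -0.52 ± 0.20 (adjusted p 0.836).

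Counting only genes whose 3 TB and 3 WT arrays did not overlap, ZT 4 stood out among the times with 19 of the 86 (22.1%). TB was above WT for 8 of them (9.3%, against 4.8% of all genes), among them Slc22a26, Slc22a27, Abca7 and Abca17. TB was below WT for 11 (12.8%, against 4.58%), among them Slco1a1, Slco1b2, Slc22a30, Abcb6, Abcc6 and Abcd3. At ZT 0 TB was above WT for 6 genes (6.98%, against 4.27% of all genes) and below for 2 (2.33%, against 2.2%). At ZT 8 it was above for 2 (2.33%, against 3.54%) and below for 5 (5.81%, against 5.85%), and at ZT 12 above for 3 (3.49%, against 6.79%) and below for 2 (2.33%, against 4.26%). At ZT 16 it was above for 6 (6.98%, against 7.98%) and below for 7 (8.14%, against 5.36%), and at ZT 20 above for 3 (3.49%, against 3.26%) and below for 2 (2.33%, against 3.3%). Only at ZT 4 were both shares of the 86 genes over those of all genes by several percentage points. In sign alone, Slc22a26 and Slco4c1 had a positive TB minus WT difference at all 6 times (2 genes, against 4.06% of all genes) and Slc22a30 a negative one (1 gene, against 2.96%). Of the 86 genes, 44 overlapped at every time, 28 were apart at 1 time, 13 at 2 and Abcd3 alone at 3. The shares of all genes apart at these numbers of times were not computed, so these counts have no background beside them.

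A group of 5 transporters had extreme levels in TB ZT 0 replicate 1, and they are described with the male-biased liver genes because these were extreme there too. Slc22a28 and this grouping were chosen after the values were seen. Slco1a1, known for higher expression in male than in female mouse liver, measured 30 units there, against 2215 and 1714 in the other two TB arrays of that time and 1778, 1342 and 2123 in WT. Slc22a26 measured 4150.3 units there, against 116 and 32.4 in the other two and 26.9, 34.4 and 34.4 in WT. Slc22a27 measured 151 units, against 10.8 and 8.05 in the other two. Slc22a28 measured 294 units, against 1254 and 1700.2, and Slco1a4 1086, against 194 and 207. So Slco1a1 and Slc22a28 were low and Slc22a26, Slc22a27 and Slco1a4 high in this 1 array.

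The mean of 11 male-biased liver genes, each centred on its own mean over arrays, was -2.82 (log2) in that array. It was -1.70 in TB ZT 8 replicate 1 and -1.01 in WT ZT 12 replicate 1, and between -0.77 and 0.74 in all other arrays. Slco1a1 was also low in these, at 418 and 761 units, and Slc22a26 high, at 258 and 195 units. The mean of 8 female-biased liver genes, centred in the same way, was 1.11 in TB ZT 0 replicate 1 and 0.83 in TB ZT 8 replicate 1, the highest of all arrays, and 0.50 in WT ZT 12 replicate 1, where 2 other WT arrays were as high (0.51 in each). Acute phase genes were high in all 3 arrays, at 1.62, 1.68 and 1.88 on the same centred scale, within a range of -1.08 to 1.68 in TB and -1.31 to 1.88 in WT. WT ZT 0 replicate 2 had an acute phase mean of 1.73 with Slco1a1 at 1342 units. The Y-linked genes Eif2s3y, Kdm5d and Uty measured 7.89, 6.87 and 7.46 (log2) in TB ZT 0 replicate 1, inside their ranges over all arrays, and Xist 5.20. Over the 6 times 10 of the 11 male-biased genes were lower in TB, with a median of -0.41, and none passed the threshold. That median includes TB ZT 0 replicate 1 and TB ZT 8 replicate 1, the arrays at -2.82 and -1.70, and was not computed without them. The part of the male-biased genes in the transporter values was not tested.

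Averaged over 6 times, Slco1a1 differed by -0.46 ± 0.31 with all arrays and by -0.16 ± 0.16 without TB ZT 0 replicate 1. Slc22a26 differed by 0.91 ± 0.35 (adjusted p 0.305), positive at 6 of 6 times, and by 0.59 ± 0.21 without that array (0.315). At ZT 4, where that array plays no part, Slc22a26 measured 45.8, 37.4 and 37.8 units in TB, against 21.1, 18.2 and 13.9 in WT, and Slc22a27 34.5, 19.6 and 15.7 in TB, against 4.43, 0.013 and 0.32 in WT. Slco1a1 at ZT 4 measured 1882, 1760.2 and 1627 units in TB, against 2253, 2188 and 2613 in WT. None of these groups overlap, and 0 of the 3 contrasts passed the adjusted threshold. Slc22a28 differed by -0.34 ± 0.16 over 6 times, and by -0.21 ± 0.12 without that array. Slc22a26, Slc22a27, Slc22a28 and Slc22a30 lie in 1 run of related genes on chromosome 19, and Slco1a1 and Slco1a4 in another on chromosome 6. Probe sequences were not used here, so whether related genes share signal was not tested.

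**Figure D4:**
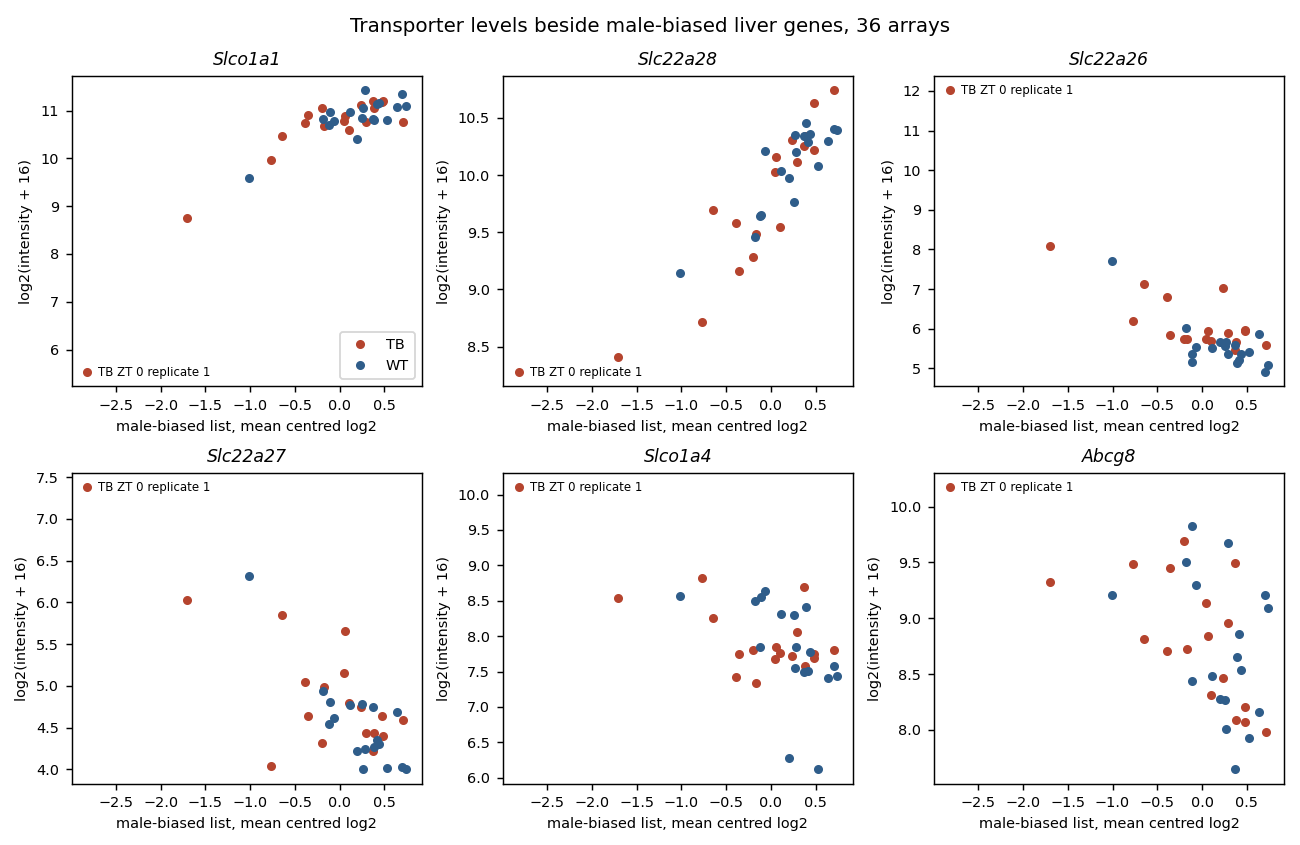
Levels of 6 transporters, as log2(intensity + 16) on the vertical axes, against the mean of 11 male-biased liver genes in the same array, in centred log2 units on the horizontal axes. Each point is 1 of 36 arrays, TB in red and WT in blue. TB ZT 0 replicate 1 lies at -2.82, with Slco1a1 and Slc22a28 at their lowest and the other 4 genes at their highest.

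Genes that act with these carriers were examined as lists. Over all genes 4.95% were rhythmic in TB and 6.45% in WT. Fits with arrays left out are not given for single genes of these lists. Of 18 measured carriers and scaffold proteins of the hepatocyte from other families, 0 differed between genotypes past the threshold, and 5 were rhythmic in TB and 5 in WT. The 3 called in both were Slc16a1, a lactate and ketone body carrier, with amplitudes of 0.60 in TB and 0.35 in WT, Atp8b1, the canalicular phospholipid flippase, with 0.32 in TB and 0.36 in WT, and Slc17a3, a urate and phosphate carrier, with 0.54 in both. Slc10a1, the sodium-dependent bile acid carrier, had amplitudes of 0.096 in TB (adjusted p 0.554) and 0.19 in WT (0.0480). Of 13 transcription factors known to act on transporter genes, 4 were rhythmic in TB (Nr0b2, Ppara, Nfe2l2 and Rxra) and 3 in WT, with Ppara, a fatty acid receptor, in both, and 0 differed in mean level. Of 8 clock and clock output factors, 7 were rhythmic in TB and 8 in WT, with a median amplitude of 1.69 in TB and 1.73 in WT, and 0 of them differed in rhythm between the genotypes.

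Promoter windows of 71 of the 86 genes were found in the RefSeq table, 83 windows in all, and 3 short motifs were searched on both strands. CACGTG, the E-box bound by clock factors, lay in 9 of the 83 windows (10.8%), each of a different gene, against 7.15% of all 32851 windows. TTATGTAA, a D-box bound by Dbp, Tef and Hlf, lay in 2 windows (2.41%), against 0.938% of all windows. AAGGTCA, a motif of nuclear receptors such as Rev-erb and Ror, lay in 4 windows (4.82%), against 4.72% of all windows. No motif is contained in another. Of the 11 rhythmic genes that have a window, Abca8b and Abcf1 held the E-box, Abcc2 the receptor motif, and none the D-box. The windows of Abca8b and Abcc2 are shown because both genes cycled in both genotypes and hold a match, written 5′ to 3′ on the gene's strand with the match in capitals. A match describes the letters and does not show a bound site. The Abca8b window is chr11:109995796-109996095 on the minus strand, with its match at positions 19 to 24 after the start, and the Abcc2 window is chr19:43782058-43782357 on the plus strand, with its match at positions -50 to -44, in GRCm38.p6.
Abca8b: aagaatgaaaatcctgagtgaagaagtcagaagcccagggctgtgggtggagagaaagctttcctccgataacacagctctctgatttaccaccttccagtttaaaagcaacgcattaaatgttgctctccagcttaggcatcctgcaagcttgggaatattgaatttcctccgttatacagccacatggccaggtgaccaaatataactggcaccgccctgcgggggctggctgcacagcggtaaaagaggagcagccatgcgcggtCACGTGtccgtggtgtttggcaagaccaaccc
Abcc2: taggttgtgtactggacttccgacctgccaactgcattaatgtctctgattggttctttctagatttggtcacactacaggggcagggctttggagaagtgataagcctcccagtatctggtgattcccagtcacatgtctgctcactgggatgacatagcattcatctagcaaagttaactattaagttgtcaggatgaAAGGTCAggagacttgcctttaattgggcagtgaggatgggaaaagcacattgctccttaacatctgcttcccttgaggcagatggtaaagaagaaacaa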

How the data were processed

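Liver RNA of 36 samples was measured on 1-colour Affymetrix arrays. The deposited values are linear intensity, 1 per probe set and array (41345 in all). Expression Console 1.1.1 of Affymetrix and PLIER 2.0 made them, per the submitters' processing notes. For settings and normalization, the sources used here give nothing. Groups and replicate numbers come from sample titles. The TB genotype is not reported in full here. Nothing says that replicates are separate animals, so the p-values speak only of spread among these samples, and that spread may be technical.

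Gene names came from the platform annotation, updated by Entrez ID, in which 23521 probe sets had 1 symbol, 1814 several and 16010 none. The probe set with the highest mean stood for each of 22180 genes. Slco2b1 alone of the 86 genes had several. Intensities entered as log2(value + 16) without further scaling. limma 3.58.1 (lmFit, eBayes, R 4.3.3) fitted 12 group means, with contrasts of TB minus WT over 6 times and at each time, the interaction, and per genotype a 24 h cosine, whose difference was also tested. Benjamini-Hochberg adjustment ran over all genes, with a threshold of 0.05. Array sets came from the leading component of within-group deviations of probe sets without a symbol. The code was tested on simulated data.

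The genes, their roles and all lists were chosen with earlier results of these data known. Genes named are those past the threshold, the 6 with the smallest p in each genotype, interaction, single-time and rhythm-difference test, the 12 with the smallest p for rhythm in TB and WT, the 5 largest amplitudes among rhythmic genes, and 17 liver carriers named whatever their values, where measured. Genes outside the families come only from the lists of other hepatic carriers, regulators, clock factors and markers (hepatocyte, cholangiocyte, endothelial, Kupffer, stellate, neutrophil, muscle, male-biased, female-biased, sex and acute phase). Medians of TB minus WT were 0.041 for cholangiocyte, -0.0079 for endothelial, 0.124 for Kupffer and -0.051 for stellate genes. They were 0.063 for neutrophil (1 gene rose), -0.39 for muscle, -0.0026 for hepatocyte, 0.107 for female-biased and 0.016 for sex genes. No other gene of these lists passed the threshold. The muscle value includes WT ZT 12 replicate 3, where the centred muscle mean was 7.18 (log2), against at most 0.0012 in TB. It was not computed without that array. Alternatives were another pseudocount, quantile or median scaling, a filter on dim genes, the mean of probe sets, a replicate block, the array sets, a 6-level time factor, fits of 1 time alone and each array left out.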

Additional observations from a re-analysis of the deposited data

How the results depend on the processing

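Among the Abc, Slco and Slc22a genes, the fit as reported called rhythms only. A rhythm was measured by its amplitude, which cannot be negative, so the alternatives could not test a change of direction. The count of 0 genes for TB minus WT over 6 times held under all alternatives but 1, the larger set only. It gave 2 (2.33%, against 5.19% of all genes). The counts of 0 at single times, for the interaction and for differing rhythm held under every alternative that could be run, and the interaction and the single times could not be fitted in the smaller set, which has 1 array per group. Rhythm counts moved with the set and the model: in WT 10 became 0 in the smaller set and 6 with time as 6 levels, and in TB 8 became 3 with the larger set alone, 0 with the smaller and 3 with time as 6 levels. Leaving out 1 array gave 6 to 12 genes in WT, 6 to 12 in TB and 0 to 0 for every other count. Over all genes, TB minus WT called 39 in the fit as reported, and 15 with a pseudocount of 1, 59 with the replicate block, 151 with the array set as a block, 1152 with the larger set alone and 0 with the smaller. Rhythm called 1431 genes in WT, against 16 in the smaller set and 596 with time as 6 levels, and 1099 in TB, against 1660 with the array set as a block, 19 in the smaller set and 482 with time as 6 levels. At ZT 8 the 1 gene called overall became 28 in the larger set and 0 with a pseudocount of 1 or median centring, and 2 under quantile scaling, the dim-gene filter, either block or that time's arrays alone; other single times gave at most 2, and the interaction 1 with the replicate block. The smaller set has fewer arrays, which by itself leaves fewer calls, and for the rest the cause was not tested.

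With the replicate block the 86 genes gave 0 calls for TB minus WT, 0 for the interaction, 11 for rhythm in WT, 8 in TB and 0 for differing rhythm, and the added gene in WT was Slc22a30 (adjusted p 0.0423). Same-numbered TB and WT arrays within a time correlated at -0.052 to 0.41 in their deviations from group means (median 0.16, over 0.1 in 14 of 18 pairs). Pairing was to be accepted only if every pair was over 0.1, so the fit without the block was kept, although most pairs shared some deviation. Same-numbered TB and WT arrays of a time also always fell in the same array set, which the fit as reported does not include. Leaving out the dimmest of 3 equal bins of genes dropped 26 of the 86. Quantile and median scaling moved the median difference of all genes to -0.0034 and -0.023, against 0.0073 without scaling. The arrays, 3 per group, limit the precision, and 11 genes were under 16 units in most arrays.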
